A study of Mus musculus with 4 samples.

Results

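Elastin (Eln) and the microfibril and accessory genes Fbn1, Fbn2, Fbln1, Fbln2, Fbln5, Mfap2, Mfap4, Mfap5 and Emilin1 were followed in single-cell RNA libraries of the developing mouse mitral valve. These 10 genes, of 27998 in the gene table, were taken by symbol and were chosen on values of the same libraries: they had been proposed for a change of elastin between E16.5 and P0 in opposite directions in mesenchyme and endothelium. The contrast of their E16.5 and P0 values in those cells is therefore a description and carries no test. Tests of E9.5 against P0 reuse the same P0 values.

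An elastic fibre has a core of cross-linked elastin, secreted as soluble tropoelastin, on a scaffold of fibrillin microfibrils. Fibulins and microfibril-associated proteins bind the core, the scaffold or both, and lysyl oxidases join the elastin chains. In heart valves, elastic fibres lie mainly in the layer that faces the atrium or the ventricle, where they let the leaflet recoil.

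The libraries came from C57BL/6 mice in which Tie2-Cre switched on a Rosa26 tdTomato reporter. By the labels, sorted tdTomato-positive cells were used at every stage. Tie2-Cre marks endothelium and the cells that descend from it, so such a sort would leave out valve cells of other origins. Blood cells can carry the mark too. Yet the E9.5 library held 509 cardiomyocyte-like, 85 posterior heart field mesoderm-like and 26 epicardial-like cells, which are not endothelial types. How these came through the sort was not tested. Dissected tissue was atrioventricular canal at E9.5, giving 1 library, and mitral valve at E16.5, giving 1, and at P0, giving 2. Each stage was pooled from at least 60 embryos or pups. Separate litters are not stated for the P0 pair, so the spread that p-values rest on may be technical, and E9.5 and E16.5 have no replicate. The P0 barcode lists share 4 barcodes, which, matched by list length, fall on 2 surface endothelial-like cells in each library. Without them Eln in that class is 11.04 and 14.29 per 10000, in place of the 10.9 and 14.0 given below. After filtering, 1195, 310, 281 and 176 cells remained at E9.5, at E16.5 and in P0 replicates 1 and 2, with medians of 24637, 2353.5, 5155 and 4433 UMIs (unique molecular identifiers, 1 per captured transcript).

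Clusters were grouped into classes by their markers. A collagen-rich class, with raised interstitial markers, held 154 cells at E16.5, against 74 and 40 at P0. A surface endothelial-like class held 64 cells at E16.5, against 82 and 45 at P0, and a capillary-like class 62 cells, against 59 and 44. Collagen-rich cells with smooth muscle or pericyte markers, called mural-marked below, numbered 20 at E16.5 against 39 and 33 at P0. These classes are cut by marker levels and are not matched cell types. The E16.5 collagen-rich class joined clusters of 49 and 61 interstitial-like cells and 44 cells with raised cushion markers, and 59 of its 74 cells in P0 replicate 1 formed a cluster that met no name. Both P0 mural-marked clusters met no name either, with 2 and 3 cardiomyocyte markers among their 10 leading genes, so their values are set beside those of E16.5 as clusters of different make-up. In the surface class of E16.5 the endothelial genes Pecam1 and Cdh5 stood at 3.62 and 4.32 per 10000, and Npr3, Vwf and Nfatc1, which mark valve and endocardial endothelium, at 2.101, 1.17 and 0.817. At E9.5, 84 endothelial cells and 107 cushion-type cells were the counterparts. Levels are UMIs per 10000 UMIs of a class in a library, with exact Poisson 95% intervals that cover counting error only. The libraries are 3' counts, so levels are compared between classes and stages, never between genes.

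Library-wide differences lay beside every E16.5 and P0 value, and their part in the results was not tested. The nuclear RNA Malat1 stood at 3.33 to 8.15 per 10000 in the E16.5 classes, against 211 to 486 at P0. Ribosomal protein genes took 3092 to 3360 per 10000 in E16.5 cells, against 2115 to 2450 at P0. Genes of the response to dissociation summed to 13.5 to 31.8 at E16.5, against 31.6 to 94.0 at P0. Scaling by TMM (trimmed mean of M values, which aligns the bulk of genes) instead of by UMI totals moved every E16.5 over P0 log2 ratio up by 0.53 in collagen-rich cells, 0.44 in surface cells and 0.72 in capillary-like cells.

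Eln (ENSMUSG00000029675, chr5:134702593-134747323, minus strand, GRCm38) encodes tropoelastin. In surface endothelial-like cells it stood at 1.75 per 10000 at E16.5 (1.18 to 2.50, 30 UMIs), against 10.9 (10.1 to 11.9) and 14.0 (12.5 to 15.6) in the P0 libraries, which averaged 12.5 ± 2.15 (SD, n = 2). The E16.5 value lay far below both P0 libraries, whose intervals it did not touch, at a ratio of 0.147 (0.0989 to 0.212). In collagen-rich cells Eln stood at 3.76 at E16.5 (3.16 to 4.45, 139 UMIs), against 4.80 and 4.40 at P0, with a mean of 4.60 ± 0.279 (SD, n = 2). That is a ratio of 0.806 (0.652 to 0.994), also below both P0 libraries but by a margin that TMM scaling turned round, to a log2 ratio of 0.22 (-0.09 to 0.52). With at least 1000 genes a cell, which left 24 Eln UMIs at E16.5, the log2 ratio was -1.22 in place of -0.31.

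Markers of other cells moved with the collagen-rich class, and their part in its values was not tested. Its 10 leukocyte markers summed to 7.15 per 10000 at E16.5 and to 0.130 and 0.111 at P0, with all 10 detected at E16.5 and 6 and 8 of them at 0 at P0. Its 11 smooth muscle or pericyte markers summed to 4.14 at E16.5 and to 9.33 and 11.3 at P0. In surface cells the 11 valve surface endothelial markers, all detected in each library, moved with Eln, summing to 12.7 per 10000 at E16.5 and to 26.4 and 25.4 at P0. The 6 lymphatic endothelial markers summed to 0.525 there at E16.5 (4 at 0), against 3.02 (1 at 0) and 0.796 (4 at 0) at P0, and the 12 general endothelial markers to 62.2, against 59.5 and 59.9. The part of these in surface Eln was not tested either.

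Whether Eln ran in opposite directions in the 2 classes depended on the scaling. By UMI share its level was lower at E16.5 in collagen-rich and in surface cells. Under TMM scaling the signs were opposite, with the collagen-rich interval holding 0 and the surface log2 ratio at -2.32. In capillary-like cells Eln had 0.260 per 10000 at E16.5 (5 UMIs), against 0.0705 (3 UMIs) and 1.54 (50 UMIs) at P0. The E16.5 value lay between the P0 libraries, which differed widely, so no direction holds there. In mural-marked cells Eln stood at 0.604 at E16.5 (4 UMIs), against 4.03 and 2.59 at P0. There the cardiomyocyte marker genes summed to 5.44 per 10000 in E16.5 cells, against 19.8 and 26.9 at P0, and their part in the difference was not tested.

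Which class held the library's elastin transcripts changed places. At E16.5 collagen-rich cells held 78.1% of the Eln UMIs of kept cells and were 49.7% of the cells, while surface cells held 16.9% and were 20.6%. At P0 surface cells held 65.0% and 64.4% of the Eln UMIs and were 29.2% and 25.6% of the cells. Collagen-rich cells held 21.3% and 16.1% and were 26.3% and 22.7% of the cells, so their share of the cells fell as well.

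Across the 4 classes, the order of Eln levels was collagen-rich, surface, mural-marked and capillary-like at E16.5. There the interval of mural-marked cells overlapped those of surface and of capillary-like cells. In both P0 libraries surface cells came highest and capillary-like cells lowest, with collagen-rich above mural-marked cells between them, though the intervals of those 2 classes overlapped in each library.

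**Figure D1:**
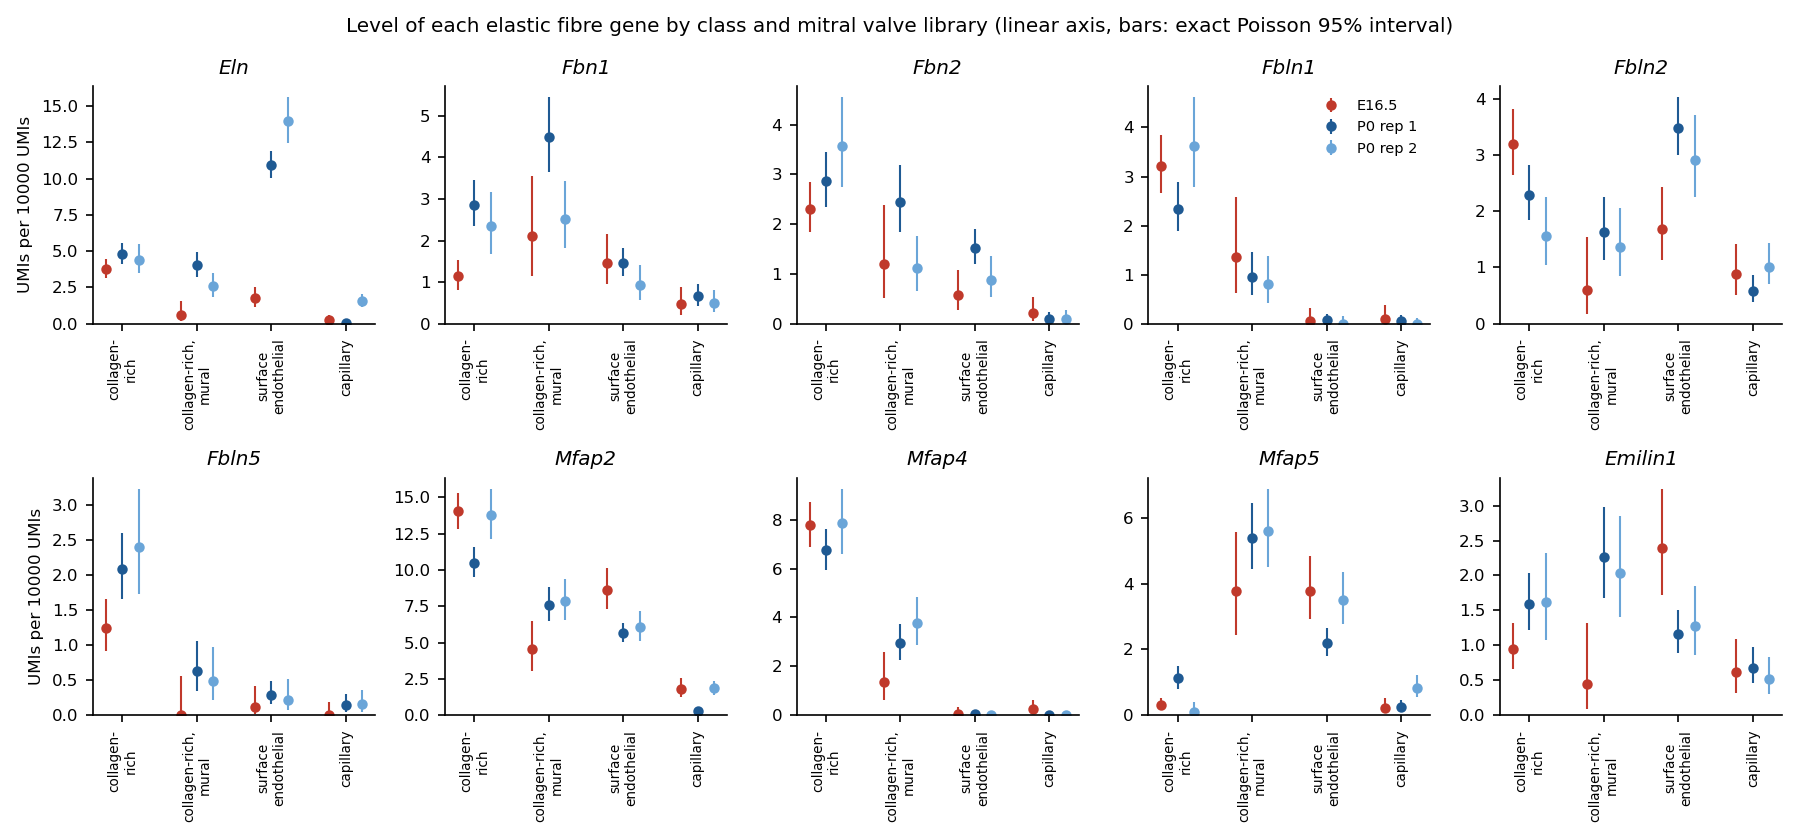
Levels of the 10 genes (vertical axes, UMIs per 10000, 1 panel a gene) in each cell class and library of the mitral valve, E16.5 left of P0; bars on points are exact Poisson 95% intervals. Eln in surface endothelial-like cells stands at 1.75 at E16.5, against 10.9 and 14.0 at P0, while Fbln1 and Mfap4 are near 0 in both endothelial classes at each stage.

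The surface elastin of P0 was found in most cells but unevenly. In P0 replicate 1, 57 of 82 surface cells had an Eln UMI, the highest cell had 128, and the top 5 cells held 49.5% of the class's Eln UMIs. In P0 replicate 2, 29 of 45 cells had one, the highest cell had 67 and the top 5 held 60.4%. At E16.5, 17 of 64 surface cells had an Eln UMI and the highest had 6. Thinned to 1000 UMIs a cell, 9.68% of E16.5 surface cells had an Eln UMI (2 shallower cells left out), against 42.7% and 44.4% at P0. In collagen-rich cells these shares were 26.0% at E16.5, against 39.2% and 37.5% at P0. Thinned to 1500 UMIs they were 34.2% at E16.5 (120 of the cells kept), against 45.9% and 32.5% at P0, so the stages overlapped and no order holds for collagen-rich cells. The capillary-like Eln of P0 replicate 2 was held by 8 of 44 cells, with 94% of its UMIs in the top 5. As background, 2 of 14 leukocyte-like cells of P0 replicate 2 had an Eln UMI (14.3%, median 6653.5 UMIs), and none did after thinning. None of 10 cardiomyocyte-like cells of E16.5 had one (median 3293 UMIs), which allows a level up to 1.10 per 10000.

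**Figure D2:**
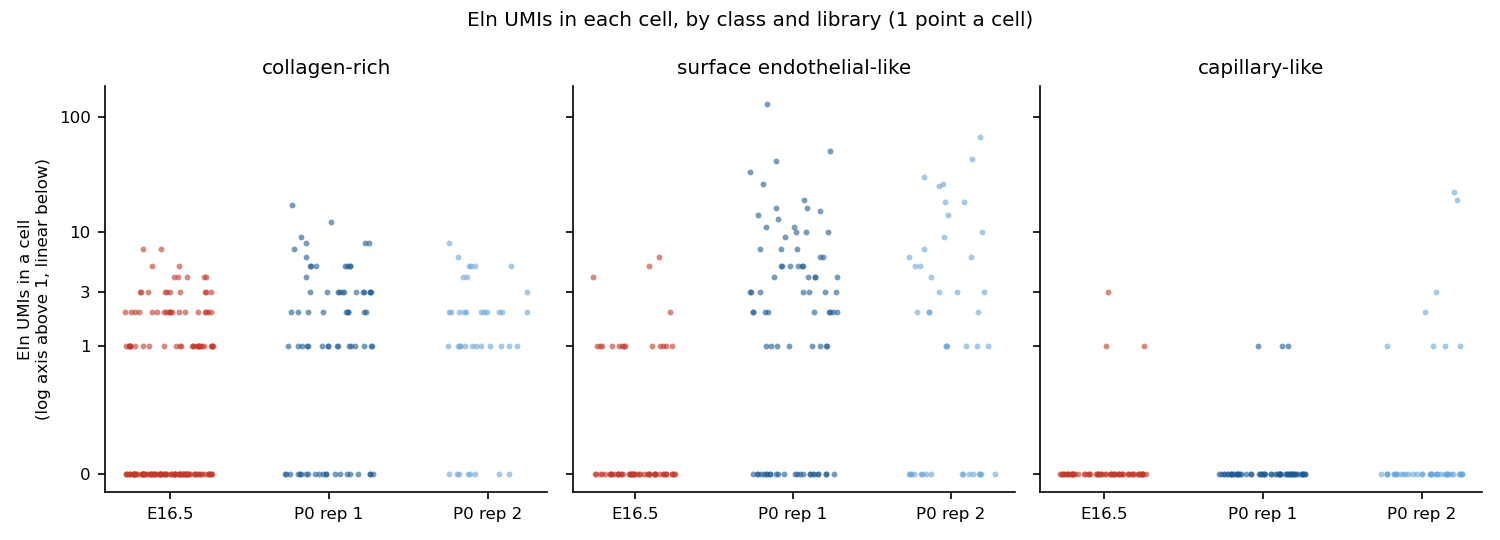
Eln UMIs in each cell (vertical axis, logarithmic above 1 and linear below, 1 point a cell) in collagen-rich, surface endothelial-like and capillary-like cells, E16.5 left of P0. The highest surface endothelial-like cell has 6 UMIs at E16.5, against 128 and 67 at P0, and the highest collagen-rich cell has 7 at E16.5, against 17 and 8 at P0.

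The fibrillins form the microfibril scaffold. Fbn1 (chr2:125300594-125507993, minus strand), the main fibrillin of mature tissue, stood at 1.14 per 10000 in collagen-rich cells at E16.5, against 2.87 and 2.34 at P0, a ratio of 0.422 (0.292 to 0.597). It was below both P0 libraries, under TMM scaling too (log2 ratio -0.72). In surface cells Fbn1 had 1.46 at E16.5, against 1.46 and 0.929 at P0, and the stages overlapped. Fbn2 (chr18:58008623-58210487, minus strand), the fibrillin best known from embryonic tissue, stood at 2.30 in collagen-rich cells at E16.5, against 2.87 and 3.57 at P0, a ratio of 0.745 (0.568 to 0.971) that turned to a log2 ratio of 0.11 under TMM. In surface cells Fbn2 had 0.583 at E16.5, against 1.52 and 0.885 at P0, a ratio of 0.440 (0.205 to 0.845). Under TMM that log2 ratio was -0.74 (-1.84 to 0.20), an interval that spans no change. Capillary-like cells had 3 or 4 Fbn2 UMIs in every library.

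Mfap2 and Mfap5 encode the microfibril-associated glycoproteins MAGP-1 and MAGP-2, which bind fibrillins. Mfap2 (chr4:141010418-141015984, plus strand) stood at 14.0 in collagen-rich cells at E16.5, against 10.5 and 13.8 at P0, and at 8.64 in surface cells at E16.5, against 5.65 and 6.06 at P0. It was above both P0 libraries in the 2 classes, with ratios of 1.22 (1.08 to 1.37) and 1.50 (1.23 to 1.81). Its margin over P0 replicate 2 in collagen-rich cells was small, and the P0 libraries themselves differed there. The ratio of replicate 1 over replicate 2 was 0.763 (0.650 to 0.898). In capillary-like cells it had 1.82 at E16.5, against 0.258 and 1.85 at P0, where the P0 libraries again stood apart. Mfap5 (chr6:122505845-122529290, plus strand) was concentrated in surface and mural-marked cells. Surface cells had 3.79 at E16.5, against 2.20 and 3.49 at P0, a ratio of 1.46 (1.09 to 1.95). Mural-marked cells had 3.77 at E16.5, against 5.39 and 5.61 at P0, levels that rested on few cells. At E16.5, 5 of 20 cells had a Mfap5 UMI and 1 cell held 17 of the 25. At P0, 21 of 39 and 10 of 33 cells had one, and the top 5 cells held 51.3% and 86.8% of the UMIs. Collagen-rich cells had 0.298 at E16.5 (11 UMIs), against 1.12 (43 UMIs) and 0.111 (2 UMIs), so P0 replicate 1 set the direction: the log2 ratio was -1.42 with both P0 libraries and 1.42 without replicate 1.

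Mfap4 and Fbln1 were found mainly in collagen-rich cells. Mfap4 (chr11:61485431-61488900, plus strand) encodes a microfibril-associated protein that binds elastin and fibrillin. It stood at 7.77 in collagen-rich cells at E16.5, against 6.75 and 7.86 at P0, and the stages overlapped by UMI share. Under TMM its log2 ratio there was 0.66 (0.44 to 0.88), so the reading depends on the scaling. Surface cells had 1 Mfap4 UMI at E16.5, against 2 and 0 at P0, and capillary-like cells 5 at E16.5 against 0 in both P0 libraries. Mfap4 overlaps Mapk7 on the other strand, which had 200 UMIs in the class sums, and whether counting used strand was not found in the labels or headers.

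The fibulins link elastin, microfibrils and basement membranes. Fbln1 (chr15:85205949-85286535, plus strand), which encodes a fibulin that binds elastic fibres and fibronectin, stood at 3.22 in collagen-rich cells at E16.5, against 2.35 and 3.62 at P0, with overlap. That overlap is by UMI share, and under TMM the collagen-rich log2 ratio of Fbln1 was 0.76 (0.40 to 1.11). Surface cells had 1 Fbln1 UMI at E16.5, against 4 and 0 at P0. Fbln2 (chr6:91212455-91272540, plus strand), a fibulin of vessel walls and developing valves, was present in all classes. In collagen-rich cells it had 3.20 at E16.5, against 2.29 and 1.56 at P0, a ratio of 1.55 (1.19 to 2.02). In surface cells it had 1.69 at E16.5, against 3.48 and 2.92 at P0, a ratio of 0.511 (0.335 to 0.753). So Fbln2, and not Eln, lay above both P0 libraries in collagen-rich cells and below both in surface cells by UMI share, and kept these signs under TMM (log2 ratios of 1.16 and -0.52, the surface interval then holding 0). The difference between the classes was not tested.

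The promoter windows of Fbln1 and Fbln2 are shown because surface cells held Fbln2 RNA and scarcely any Fbln1 RNA. Each runs from 250 bases before to 50 after a RefSeq transcription start (GRCm38.p6, plus strand, chr15:85205699-85205998 and chr6:91212514-91212813), and capitals mark motif matches on either strand.
Fbln1: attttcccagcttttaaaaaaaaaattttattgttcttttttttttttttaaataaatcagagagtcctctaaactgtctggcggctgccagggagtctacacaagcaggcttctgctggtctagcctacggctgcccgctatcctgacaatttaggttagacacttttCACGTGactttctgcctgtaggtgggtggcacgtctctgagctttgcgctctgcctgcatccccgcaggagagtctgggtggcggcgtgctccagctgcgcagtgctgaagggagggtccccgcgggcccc
Fbln2: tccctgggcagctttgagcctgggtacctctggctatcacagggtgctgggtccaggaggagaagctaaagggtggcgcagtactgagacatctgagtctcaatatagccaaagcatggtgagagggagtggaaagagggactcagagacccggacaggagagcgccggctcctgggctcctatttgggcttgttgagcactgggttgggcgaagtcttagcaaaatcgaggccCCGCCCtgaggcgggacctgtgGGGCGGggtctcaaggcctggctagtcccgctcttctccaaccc
The Fbln1 window held 1 E-box (CACGTG) and no GC box, while the window of a second RefSeq start of Fbln1 (chr15:85205758-85206057) held 2 GC boxes and 1 E-box. The Fbln2 window held 2 GC boxes (GGGCGG, or CCGCCC on the other strand) and no E-box, so the GC box did not set the genes apart over both Fbln1 windows. The TATA box (TATAAA), the CCAAT box (CCAAT) and the AP-1 motif (TGANTCA) were searched as well and matched none of these windows. Of all 32851 RefSeq promoter windows of this length, 35.7% held the GC box, 7.15% the E-box, 13.6% TATAAA, 37.4% CCAAT and 7.81% the AP-1 motif. A match is a string of letters in a window and not a binding site. Windows were matched for 6 of the 10 genes.

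Fbln5 (chr12:101746565-101819055, minus strand) encodes a fibulin needed for elastic fibre assembly in mice. It stood at 1.25 in collagen-rich cells at E16.5, against 2.08 and 2.40 at P0, a ratio of 0.570 (0.397 to 0.807). Under TMM the log2 ratio was -0.28 (-0.80 to 0.22), an interval that spans no change. Surface cells had 2 UMIs at E16.5, against 15 and 5 at P0, and capillary-like cells 0, against 6 and 5. Emilin1 (chr5:30913402-30921277, plus strand) encodes a glycoprotein at the interface of elastin and microfibrils. In collagen-rich cells it had 0.948 at E16.5, against 1.59 and 1.62 at P0, a ratio of 0.593 (0.390 to 0.886), and in surface cells 2.39 at E16.5, against 1.17 and 1.28 at P0, a ratio of 1.99 (1.34 to 2.91). Under TMM the collagen-rich log2 ratio of Emilin1 was -0.22 (-0.83 to 0.36), spanning no change, and the surface one 1.44 (0.87 to 1.99). In capillary-like cells the stages overlapped.

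**Figure D3:**
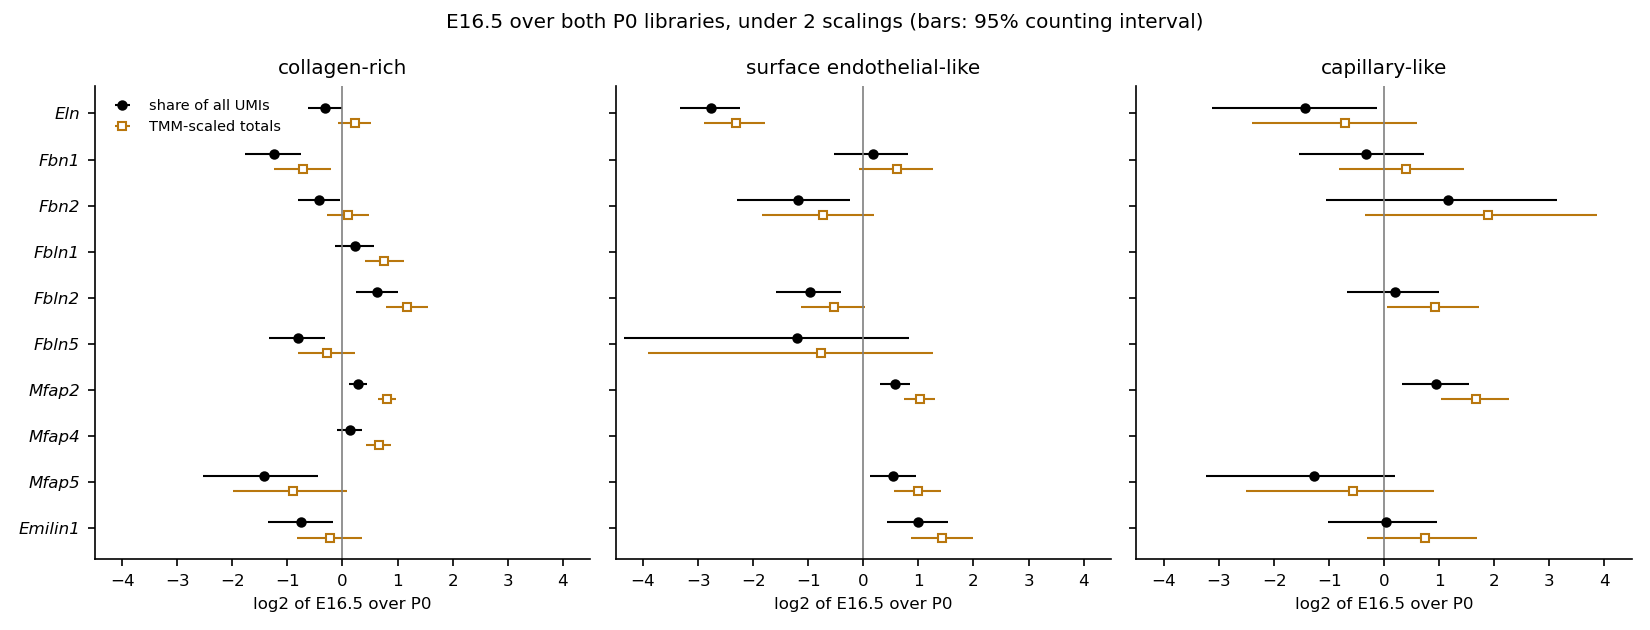
Log2 of the E16.5 level over both P0 libraries (horizontal axes) for the 10 genes in collagen-rich, surface endothelial-like and capillary-like cells, by share of all UMIs (filled circles) and with TMM-scaled totals (open squares); bars are 95% counting intervals, and pairs with too few UMIs are not drawn. Eln in surface cells lies at -2.76 and -2.32, while in collagen-rich cells it lies at -0.31 and 0.22, on either side of 0.

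Read together, 2 of the 10 genes were above both P0 libraries and 5 below both in collagen-rich cells. Among all genes with at least 30 UMIs over the 3 sums of a class, 25.7% were above and 58.6% below in that class, so the shares of the 10 genes are near the background. In surface cells 4 were above and 4 below, beside 24.9% and 63.9% of all genes. In capillary-like cells 3 were above and 3 below, beside 21.2% and 69.4%. In mural-marked cells 1 was above and 8 below, beside 28.2% and 63.0%. The 10 genes' median log2 ratios, over those with UMIs at both stages, were -0.37, 0.14, 0.11 and -0.79 in these classes, against -0.51, -0.65, -0.91 and -0.74 for all genes. Of the 10, the minimum of 30 UMIs was met by 10, 7, 6 and 9 genes in the 4 classes.

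In P0 replicate 1 the surface class held 2 clusters that stood apart in Eln, Fbln2, Mfap5 and Fbn2. They were drawn with the elastic fibre genes left in, so these genes could themselves have helped to part the cells. A cluster of 47 cells led by Igfbp5 and Vwf had 16.46 Eln UMIs per 10000, against 3.11 in a cluster of 35 cells led by Ahsg and Enpp2. The Igfbp5-led cluster also had more Fbln2, at 5.18 against 1.08, and more Mfap5, at 3.45 against 0.424, and less Fbn2, at 0.365 against 3.15. Vwf, a valve surface endothelial marker, stood at 4.85 against 0.377 per 10000 in these clusters. The lymphatic and valve transcription factor gene Prox1 stood at 0.365 against 2.26. At a finer resolution, with the elastic fibre and partner genes kept out of the clustering, 9 cells led by Pthlh in P0 replicate 1 had 30.2 Eln UMIs per 10000, and 21 cells led by Nppc in replicate 2 had 21.6, beside 4.17 in the other surface cells of that library. The main E16.5 surface cluster had 1.69 at the finer resolution, and an E16.5 cluster of 11 cells led by Stmn2 had 1.76 Eln and 7.05 Mfap5. These are clusters of single libraries, given as descriptions with no test. Both P0 libraries held a cluster of high Eln, and the leading genes of those clusters differed.

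**Figure D4:**
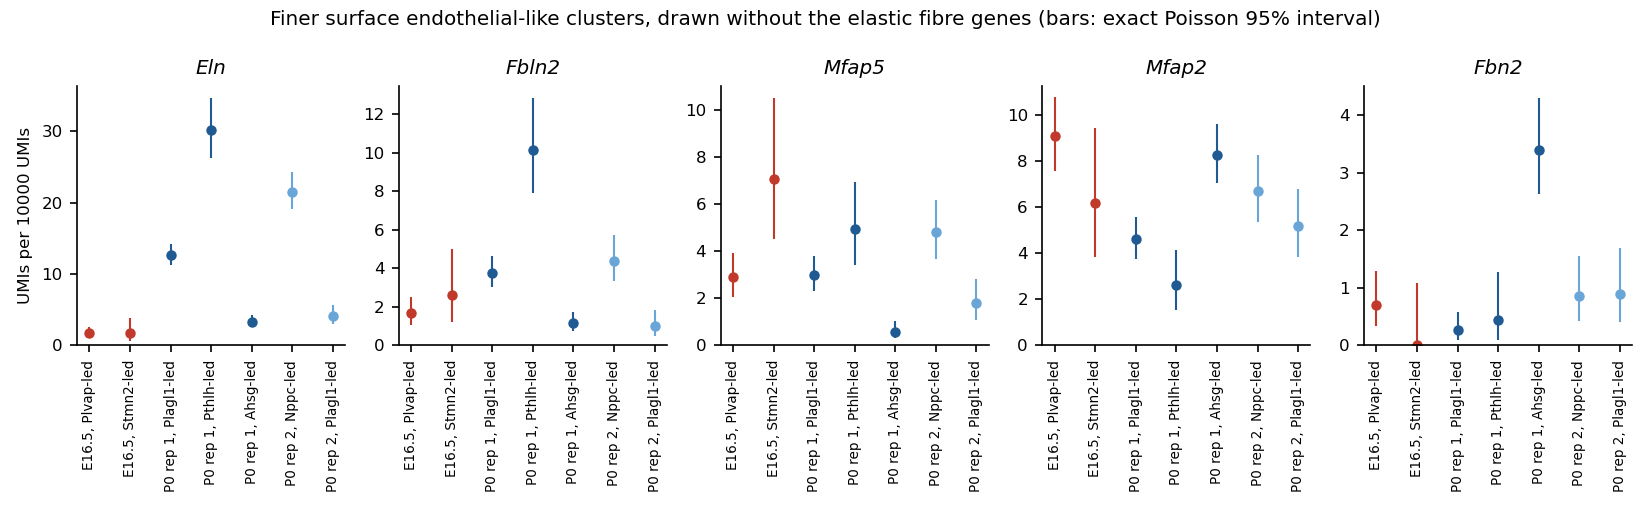
Levels of Eln, Fbln2, Mfap5, Mfap2 and Fbn2 (vertical axes, UMIs per 10000, 1 panel a gene) in the finer clusters of surface endothelial-like cells, E16.5 left of P0, each named by its library and leading gene; bars are exact Poisson 95% intervals. Eln stands at 1.69 and 1.76 in the E16.5 clusters, against 30.2 in the Pthlh-led and 21.6 in the Nppc-led clusters of P0.

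At E9.5 the canal had scarcely any elastin. Cushion-type cells had 1 Eln UMI in 2302325, against 4.80 and 4.40 per 10000 in P0 collagen-rich cells, and endothelial cells had 0 in 2049474, against 10.9 and 14.0 in P0 surface cells. With a floor of 3 UMIs over the E9.5 sum, the E9.5 endothelial level was at least 811-fold lower. The P0 over E9.5 ratio in the mesenchymal comparison was 1075 (191 to 42622). The P0 values are those that the choice of genes used, and E9.5 is 1 library. Eln, Fbln5, Mfap4, Mfap5 and Fbln2 had 1, 1, 3, 5 and 125 UMIs in E9.5 cushion-type cells and passed the filter on low counts only through the later libraries, where they are high, so they are given as values. Of the other 5 genes, Fbn1, Fbn2, Fbln1 and Mfap2 were lower at E9.5 than in P0 collagen-rich cells, at an adjusted p under 0.05 (quasi-likelihood test of edgeR, Benjamini-Hochberg) and a level outside both P0 libraries. Among all 3841 genes tested, 23.2% were lower and 19.3% higher. Fbn1 had 0.973 per 10000 at E9.5, against 2.87 and 2.34 at P0 (log2 fold -1.79, adjusted p = 7.91e-08). Mfap2 had 2.83 at E9.5, against 10.5 and 13.8 at P0 (log2 fold -2.43, adjusted p = 5.78e-23). Mfap4 had 3 UMIs at E9.5, against 259 and 141. Emilin1 did not pass, with 1.47 at E9.5 against 1.59 and 1.62 at P0 (adjusted p = 0.224). The comparison sets canal cells against leaflet cells of another region and stage.

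In E9.5 endothelial cells, set against P0 surface cells, the P0 values are again those that the choice of genes used, and E9.5 is 1 library. The p-values are therefore not independent of that choice. The limit of the filter also held for 4 of the genes. Eln and Mfap5 had 0 UMIs and Fbln2 had 9 at E9.5, and these passed the filter only through the later libraries, while Fbln1, with 149 UMIs at E9.5 against 4 and 0 at P0, passed only through E9.5. Fbln2 stood at 0.0439 per 10000, against 3.48 and 2.92, and the Mfap5 level was at least 177-fold lower. Of the other genes fitted, Mfap2 was lower, with 1.51 per 10000 at E9.5 against 5.65 and 6.06 at P0 (log2 fold -2.12, adjusted p = 4.18e-20). Fbn1 was lower too, with 0.615, against 1.46 and 0.929 (adjusted p = 0.000143), a call lost in DESeq2 (adjusted p = 0.359). Fbn2 (adjusted p = 0.204) and Emilin1 (adjusted p = 0.843) did not pass, and Fbln5 and Mfap4 were too low to fit. Among all 3891 genes tested, 31.5% were higher and 30.0% lower at E9.5.

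**Figure D5:**
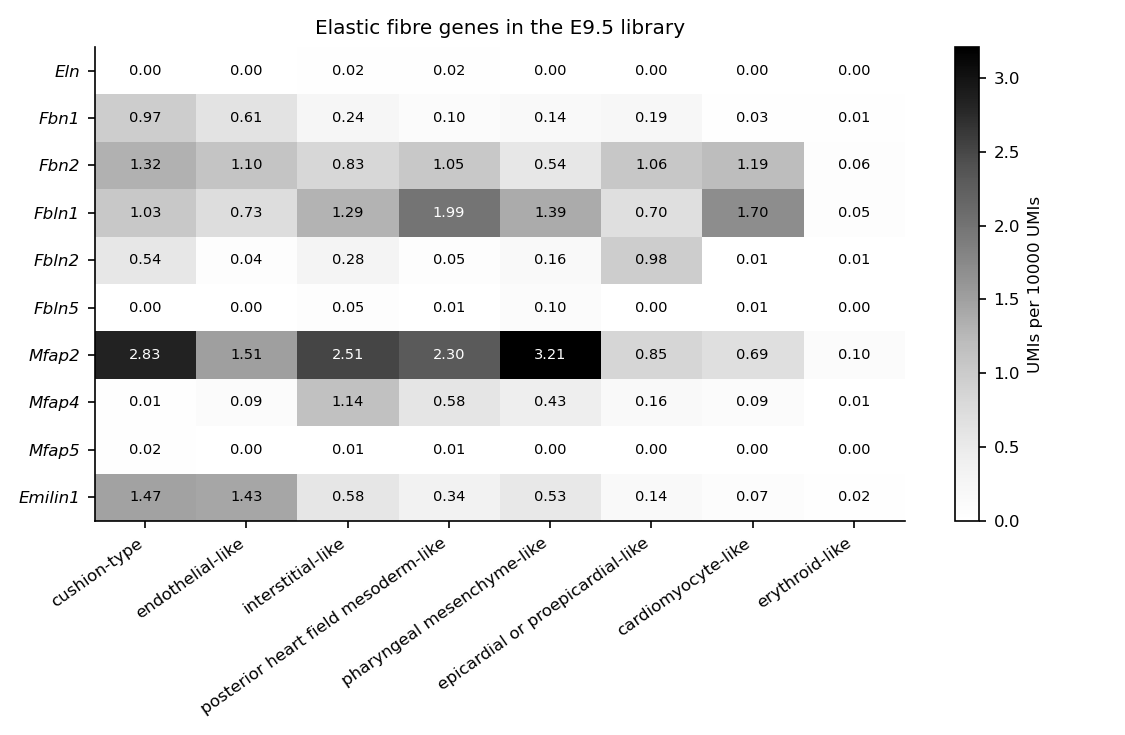
Levels of the 10 genes (rows) in 8 cell types of the E9.5 atrioventricular canal library (columns), printed and shaded from white to black as UMIs per 10000. Mfap4 stands at 1.14 in interstitial-like and 0.01 in cushion-type cells, and Eln is at 0.02 or below in every type.

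Among E9.5 cell types, Fbn2 and Fbln1 were at 1.19 and 1.70 per 10000 in 509 cardiomyocyte-like cells and at 1.32 and 1.03 in cushion-type cells. Emilin1 was at 1.47 in cushion-type and 1.43 in endothelial cells, and at 0.0745 in cardiomyocyte-like cells. In 243 erythroid-like cells Eln had 0 UMIs, Fbn2 had 0.0616 and Fbln1 had 0.0515.

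The enzymes and partners of elastic fibres were taken as a list of 48 genes. Between E16.5 and P0, 25 of them could be fitted in collagen-rich cells, where 6 were higher and 3 lower at E16.5. Among all genes tested there, 16.4% were higher and 12.8% lower. Scaling by library totals instead of TMM gave 3 higher and 5 lower, beside 370 higher and 974 lower among all 3841 genes. Loxl1, a lysyl oxidase-like enzyme that cross-links elastin, had 4.69 per 10000 in E16.5 cells, against 3.23 and 2.28 at P0 (log2 fold 1.22, adjusted p = 0.000153), a call lost in DESeq2 (adjusted p = 0.0586). Lox, the founding member, had 0.650 at E16.5, against 0.469 and 0.334 at P0, and did not pass (adjusted p = 0.402). Efemp2 (fibulin-4) had 1.16 at E16.5, against 1.64 and 1.39 (adjusted p = 0.888), and Ltbp4, which binds fibulin-5 and latent TGF-beta, 2.87, against 3.67 and 2.56 (adjusted p = 0.426). None of the 9 microfibril-binding ADAMTS and ADAMTSL genes had enough counts to fit. Mmp14, a membrane-bound matrix metalloproteinase counted among the lower, had 2 UMIs at E16.5 against 93 and 22 at P0. Its E16.5 level was under the filter on low counts, which Mmp14 passed only through other libraries. It is therefore given as a value. Cst3, a cysteine protease inhibitor gene, had 9.26, against 3.65 and 4.40 (adjusted p = 9.57e-11).

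In surface cells 21 partners could be fitted, with 5 higher and 3 lower at E16.5 (3 and 5 with library totals). Among all 3891 genes tested, 15.1% were higher and 12.4% lower. With library totals 374 of them were higher and 870 lower. Hmcn1, which encodes the basement membrane protein hemicentin-1, had 1.28 per 10000 in E16.5 cells, against 7.84 and 7.12 at P0 (log2 fold -2.12, adjusted p = 2.77e-09). Mmp14, counted among the lower, had 1 UMI, against 87 and 27. It again passed the filter only through other libraries and is given as a value. Timp1, an inhibitor of matrix metalloproteinases, had 1.40, against 0.370 and 0.708 (adjusted p = 0.000789). Timp3, of the same inhibitor family, was called the other way, lower at E16.5, with a log2 fold of -1.59. In collagen-rich cells Timp1 and Timp3 also went apart, at log2 folds of 1.24 and -0.91. Loxl1 had 5 UMIs in surface cells at E16.5, against 2 and 0 at P0, and Lox 2, against 4 and 7. Neither could be fitted. Ltbp4 did not pass, with 1.46 at E16.5 against 2.43 and 2.17 (adjusted p = 0.661). In capillary-like cells 16 partners could be fitted, with 2 higher and 2 lower (2 and 7 with library totals). Among all 3357 genes 20.8% were higher and 17.0% lower, and with library totals 366 were higher and 1255 lower. Hmcn1, counted among the lower there, had 0.208 at E16.5, against 1.62 and 1.69 at P0. It passed the filter only through the P0 libraries, so it too is given as a value. Cst3 was called higher at E16.5 in surface and capillary-like cells as well as in collagen-rich cells. Its log2 folds were 1.72 in collagen-rich, 1.16 in surface and 1.63 in capillary-like cells. The partner P4hb was called higher in each of these classes too, at 1.64, 1.37 and 1.62. The medians over the partners were 0.32, 0.21 and -0.27 in the 3 classes, against -0.07, -0.13 and -0.21 for all genes.

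Over 12 sums, of 4 classes in 3 valve libraries that share library and depth, the genes whose levels were most like those of Eln among 6527 were Cpe (Pearson r = 0.90), Stt3b (0.90), Fbln2 (0.90), Ahnak2 (0.89) and Ctsk (0.88). Cpe had 3.50 per 10000 in surface cells at E16.5, against 5.51 and 5.18 at P0. Of the other elastic fibre genes, Mfap2 came next at rank 171 (0.68) and Fbln1 last at 3470 (0.18). Among themselves, Fbln1 and Mfap4 were most alike (0.96) and Fbn2 and Mfap2 stood at 0.85.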

How the data were processed

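Single-cell RNA was captured with a 10x 3' kit and read as 57-base reads, per the labels' protocols; Cell Ranger 2.1.1 and the mm10 build are named in the submitters' processing notes. The deposited matrices hold UMI counts per gene and cell, not normalized. The deposited gene tables, whose columns are IDs and symbols of unit other, name 27998 genes; 15 date-altered symbols in P0 replicate 1 were restored by gene ID. For E9.5 and E16.5 the deposited barcode lists hold all 737280 possible barcodes, so sharing could be counted between the P0 libraries only. The E9.5 library held 30819374 UMIs, the E16.5 library 1021188 and the P0 libraries 1836768 and 1086623.

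Cells with at least 500 genes and at most 10% mitochondrially encoded UMIs were kept, and doublets called by Scrublet (0.332% to 1.33% of cells) were removed. Libraries were clustered separately in scanpy 1.11.5, by the Leiden method of igraph (2000 variable genes, 20 components, 15 neighbours, resolution 1.0). Python was 3.11.15, with numpy 2.4.6, pandas 2.3.3 and scipy 1.17.1. Figures used matplotlib 3.10.9. Clusters were named from at least 3 raised markers. Class thresholds (20 UMIs per 10000 of collagen or of endothelial markers, and 4 raised mural markers) were set after the clusters were seen. The class called interstitial in the fixed plan is called collagen-rich.

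UMIs were summed per class and library. Summed counts were tested with edgeR 4.0.16 (quasi-likelihood, TMM, genes that reached, in at least 1 summed library of the fit, the level that 10 counts give in its smallest sum, Benjamini-Hochberg adjustment) in R 4.3.3, with DESeq2 1.42.0 as an alternative. A call needed an adjusted p under 0.05 and a level outside both P0 libraries. Residual spread came from the 2 P0 libraries alone, so E9.5 and E16.5 are assumed to vary like them. The fit was also run on simulated data, which cannot show whether the P0 spread is biological, so no support is drawn from it. Genes named were all 10 members, up to 5 called partners with the largest folds in each comparison besides Lox, Loxl1, Efemp2 and Ltbp4, and the 5 genes most like Eln in level, with a pseudocount of 0.5. Of these, the text gives values for the partners it turns on. Ltbp4 is its main ID of a pair with that symbol. The genes and lists were chosen with earlier results of these data known. Scaling, cell filters, doublets, clustering and left-out libraries were varied. Positions are GENCODE vM21 on GRCm38, and promoters RefSeq on GRCm38.p6. Gene overlaps on the other strand held 1 UMI (Eln), 8 (Fbn1) and 5 (Fbn2) in the class sums.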

Additional observations from a re-analysis of the deposited data

Results flagged for a closer look

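Fbln2, Mfap5 and Emilin1 lay above both P0 libraries at E16.5 in 1 class and below both in another. The E16.5 over P0 ratio of UMI shares for Fbln2 was 1.55 in collagen-rich and 0.511 in surface endothelial-like cells. For Emilin1 it was 0.593 in collagen-rich and 1.99 in surface cells. Under TMM the intervals of Fbln2 in surface cells and of Emilin1 in collagen-rich cells spanned no change. For Mfap5 the ratio of UMI shares was 1.46 in surface and 0.411 in capillary-like cells. The capillary value rested on 4 UMIs at E16.5, and its interval held 1. The differences between classes were not tested, since E16.5 has 1 library.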

How the results depend on the processing

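No paired analysis was possible because only P0 has a replicate number beyond 1, so no number is shared by 2 samples of each group. The log2 ratio of Eln (E16.5 over P0) in collagen-rich cells was -0.31. It reversed to 0.22 with TMM-scaled totals. It was -0.18 without ribosomal, mitochondrial and haemoglobin genes and Malat1, -1.22 with at least 1000 genes a cell, -0.40 with at least 300, and -0.15 with doublets kept as well as with unnamed clusters added. Without 1 P0 library at a time it ran -0.35 to -0.23. In surface cells it was -2.76, with -2.32 under TMM, -1.99 with no mitochondrial limit, and -3.00 to -2.64 without 1 P0 library. In capillary-like cells it was -1.44, and -2.57 to 1.88 without 1 P0 library, reversed without replicate 2.

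Of the other genes, Fbn2 in collagen-rich cells reversed to 0.11 under TMM and Mfap2 to -0.16 with at least 1000 genes. Mfap5 there reversed to 1.42 without P0 replicate 1 (-1.91 without replicate 2), 1.73 at resolution 0.6 and 3.46 when libraries were clustered together. Mfap2 in capillary-like cells reversed to -0.022 without P0 replicate 1 (2.82 without replicate 2) and -0.17 with at least 1000 genes. Of 27 ratios of the other 9 genes, 14 had intervals that left out 1, and 9 with at least 1000 genes. The share over all genes was not counted, so these counts do not set the elastic fibre genes apart. DESeq2 called 3 partners in place of 9 in collagen-rich cells and 3 in place of 8 in surface cells. In capillary-like cells it called 2 in place of 4, where library totals gave 9. Over all genes DESeq2 also called fewer than edgeR. It called 265 higher and 89 lower in collagen-rich, 252 and 68 in surface and 335 and 53 in capillary-like cells. DESeq2 gave no adjusted p for 1713 of 3841 genes in collagen-rich, 2188 of 3891 in surface and 1822 of 3357 in capillary-like cells. Those genes could not be called by it at all. Thinning to 1500 UMIs gave 34.2% of E16.5 collagen-rich cells with an Eln UMI, against 45.9% and 32.5% at P0, in place of 26.0%, against 39.2% and 37.5%, and 0% of E16.5 mural-marked cells in place of 5%.

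Counts of calls without a P0 library were not run, as no residual spread is left. Clustered together, the libraries gave no cushion-type class, so those fits have no value there. The mural-marked class had no test, and its edgeR alternatives were not run. The E16.5 depth limits genes of few UMIs. Resolution 1.6 with the elastic fibre genes kept out of clustering, and the TMM and resolution settings of the mural-marked class, were chosen after seeing the data.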
